A study of Mus musculus with 2 samples.

Results

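The MHC class I presentation genes followed here are 10 genes picked by symbol from the 32285 genes counted in each library: the heavy chains H2-K1, H2-D1 and H2-T23, the light chain B2m, the peptide transporter subunits Tap1 and Tap2, the chaperone Tapbp, the immunoproteasome subunits Psmb8 and Psmb9, and the transactivator Nlrc5. All 10 were found and had UMIs in every cell class described. They were picked by symbol and not by a measured value, though with earlier results of these data known. The series holds 2 single-cell RNA libraries of Lewis lung carcinoma (LLC), a C57BL/6 lung cancer line, grown under the skin of C57BL/6 mice. The sGC-Ctr library came from Gucy1b1 flox/flox mice and the sGC-∆PC library from Cspg4-CreERT2::Gucy1b1 flox/flox mice. Gucy1b1 encodes a subunit of soluble guanylate cyclase (sGC), the receptor for nitric oxide, and the tamoxifen-activated Cre was driven by Cspg4 (NG2), a pericyte gene. Mice of both groups carried the floxed alleles and were dosed with tamoxifen 5 times at the age of 4 weeks, were given LLC cells at 8 weeks, and had their tumors taken 2 weeks later. Each library was made from 3 pooled tumors. Cre acted in cells of the host alone, so the LLC cells were wild type in both groups, and other host cells that express Cspg4 could also have recombined.

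Class I molecules show peptides made inside a cell to CD8 T cells. The proteasome cuts proteins into peptides, and interferon gamma exchanges its standard catalytic subunits for Psmb8, Psmb9 and Psmb10. The Tap1 and Tap2 dimer carries the peptides into the endoplasmic reticulum, where tapasin (Tapbp) holds an empty heavy chain and B2m next to it until a peptide binds. Nlrc5 enters the nucleus and switches on the genes of the pathway together with the RFX complex. Nearly all nucleated cells show class I molecules, and tumor cells often show few of them, which interferon gamma can reverse. LLC is known as a line with low surface class I.

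All members but B2m and Nlrc5 lie on chromosome 17 within or beside the MHC, and Psmb9, Tap1, Psmb8 and Tap2 form one block. In GENCODE annotation of mm10, Psmb9 (chr17:34181987-34187764, minus strand) overlaps the start of Tap1 (chr17:34187553-34197225, plus strand) by 212 bases, head to head. Psmb8 (chr17:34197721-34201454) follows Tap1 after 495 bases and Tap2 (chr17:34203527-34216321) follows Psmb8 after 2072 bases, both on the plus strand. H2-K1 (chr17:33996017-34000347, minus strand) and Tapbp (chr17:33915899-33929292, plus strand) sit on one side of this block, and H2-D1 (chr17:35262730-35267499, plus strand) and H2-T23 (chr17:36029773-36032855, minus strand) on the other. B2m is at chr2:122147686-122153083 and Nlrc5 at chr8:94434356-94527272, both on the plus strand.

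The promoters of the 3 members with the highest levels in cancer cells are shown because 2 of them hold the same run of elements. RefSeq start-site windows on GRCm38.p6, from 250 bases before to 50 bases after the start, matched 8 of the 10 members, and those of H2-K1 (chr17:34000298-34000597, minus strand), H2-D1 (chr17:35262844-35263143, plus strand) and B2m (chr2:122147437-122147736, plus strand) read 5′ to 3′ as follows, with capitals marking a kappa B element or the core of an interferon response element.
H2-K1: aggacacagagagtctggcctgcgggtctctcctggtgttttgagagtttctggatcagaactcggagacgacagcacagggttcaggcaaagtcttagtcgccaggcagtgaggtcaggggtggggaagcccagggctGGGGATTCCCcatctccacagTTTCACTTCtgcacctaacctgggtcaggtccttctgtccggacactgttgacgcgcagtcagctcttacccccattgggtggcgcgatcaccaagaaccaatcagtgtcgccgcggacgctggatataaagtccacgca
H2-D1: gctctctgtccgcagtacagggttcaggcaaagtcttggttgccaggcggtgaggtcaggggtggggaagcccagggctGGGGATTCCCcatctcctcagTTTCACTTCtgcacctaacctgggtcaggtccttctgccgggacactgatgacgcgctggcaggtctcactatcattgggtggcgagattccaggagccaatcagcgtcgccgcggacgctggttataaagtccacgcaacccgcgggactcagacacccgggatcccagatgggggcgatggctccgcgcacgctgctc
B2m: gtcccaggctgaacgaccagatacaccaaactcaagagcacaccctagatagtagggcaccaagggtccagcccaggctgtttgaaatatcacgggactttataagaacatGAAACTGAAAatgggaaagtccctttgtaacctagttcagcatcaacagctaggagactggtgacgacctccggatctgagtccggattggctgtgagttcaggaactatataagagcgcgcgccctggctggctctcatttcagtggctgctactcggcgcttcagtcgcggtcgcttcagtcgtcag
The kappa B element, the 10 letters of the first run of capitals in H2-K1, was searched on both strands as were the motifs that follow. Other forms of the element were not searched. In these exact letters it was found in H2-K1 and H2-D1 and in 28 of 27025 promoters (0.104%). In both genes it was followed, on the other strand, by the interferon response core GAANNGAAA, which 7.56% of all promoters held. B2m and H2-T23 held a longer form, GAAA and GAAA with 2 letters of any kind between them, present in 3.49% of promoters and searched after the first form had been seen to miss it. The CCAAT box was in each of the 8 windows except that of Psmb8, against 37.9% of all promoters. The gamma activated sequence TTCNNNGAA was in Psmb8 alone among the 8, against 8.47%. The cyclic AMP response core TGACG was in H2-K1, H2-D1, B2m, Tap1 and Psmb9, against 21.0%. The windows of Tap1 (chr17:34187306-34187605) and Psmb9 (chr17:34187281-34187580) overlap. Their TGACG matches are the same site, as are their CCAAT matches, so the counts of members are not of separate sites. These are matches of letters and no measure of binding.

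The sGC-Ctr library held 15007 barcodes and 487859656 UMIs, and the sGC-∆PC library 25631 barcodes and 436352742 UMIs. After quality control 12220 and 22498 cells remained, with a median of 35776.5 and 8685 UMIs per cell, and 98 of these cells had a barcode sequence found in both libraries. Cells were placed in a class by their share of UMIs in fixed marker genes, none of which is a member. This gave 7465 and 12563 cancer cells, 2198 and 2875 macrophages, 218 and 257 granulocytes, 61 and 51 T cells, 37 and 37 dendritic cells, 51 and 47 endothelial cells, 34 and 30 pericytes, and 110 and 176 fibroblasts in sGC-Ctr and sGC-∆PC. Natural killer cells (10 and 8) and B cells (5 and 5) were too few to describe. Cells in no class made up 16.6% and 28.7% of the cells, and their median UMIs were 6594 and 2991. Levels are UMIs of a gene per 1000000 UMIs of the class (CPM). Each UMI is 1 molecule counted at its 3′ end, so levels were not divided by gene length. Each condition is 1 library, so no test could be made, and brackets give 95% intervals that cover counting error alone. With 1 library a condition, genotype, library and depth cannot be told apart.

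The deleted gene bears on whether the labels hold. Pericytes held 55 Gucy1b1 UMIs (131 CPM) in sGC-Ctr and 12 (45.4 CPM) in sGC-∆PC, a log2 ratio of -1.53 (-2.56 to -0.61). Cspg4, the gene that drives Cre and was not floxed, was also lower in these pericytes. It had 71 UMIs (169 CPM) in sGC-Ctr and 20 UMIs (75.7 CPM) in sGC-∆PC. Cspg4 was also counted in macrophages (50.4 and 29.8 CPM) and fibroblasts (7.11 and 3.35 CPM), lower in sGC-∆PC in both. In cancer cells it was scarce and slightly higher in sGC-∆PC (0.597 and 0.694 CPM). The study describes the Cspg4-CreERT2 mice as knock-in, so the Cspg4 locus differed between the groups as well. What the shared difference of Gucy1b1 and Cspg4 takes from the deletion or the knock-in was not tested. For Gucy1b1 the log2 ratio was -0.83 with a stricter gate and -1.74 with a looser one.

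Cancer cells had the lowest level of the pathway of the 8 classes in both libraries. The 10 members together reached 877 CPM (874 to 880) in sGC-Ctr cancer cells and 1112 CPM (1109 to 1116) in sGC-∆PC cancer cells. Fibroblasts followed with 1676 and 2481 CPM, and pericytes had 1947 and 3205 CPM. In sGC-Ctr these stromal classes were closest to the cancer cells, while in sGC-∆PC granulocytes had a lower value than pericytes. Granulocytes had 2773 and 2863 CPM, endothelial cells 3834 and 5058 CPM, and macrophages 3961 and 4521 CPM. Dendritic cells had 6129.8 and 7148 CPM and T cells 7370.2 and 6655 CPM. Dendritic and T cells stood at the top. Over cancer cells of the same library this was 8.40 and 5.98 times as much in T cells, 6.99 and 6.43 times in dendritic cells, 4.52 and 4.06 times in macrophages, 4.37 and 4.55 times in endothelial cells, 3.16 and 2.57 times in granulocytes, 2.22 and 2.88 times in pericytes, and 1.91 and 2.23 times in fibroblasts. The order from cancer cells up to T or dendritic cells was alike in both libraries apart from neighbours. The intervals of macrophages and endothelial cells met in sGC-Ctr, and those of dendritic and T cells and of pericytes and granulocytes met in sGC-∆PC.

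**Figure D1:**
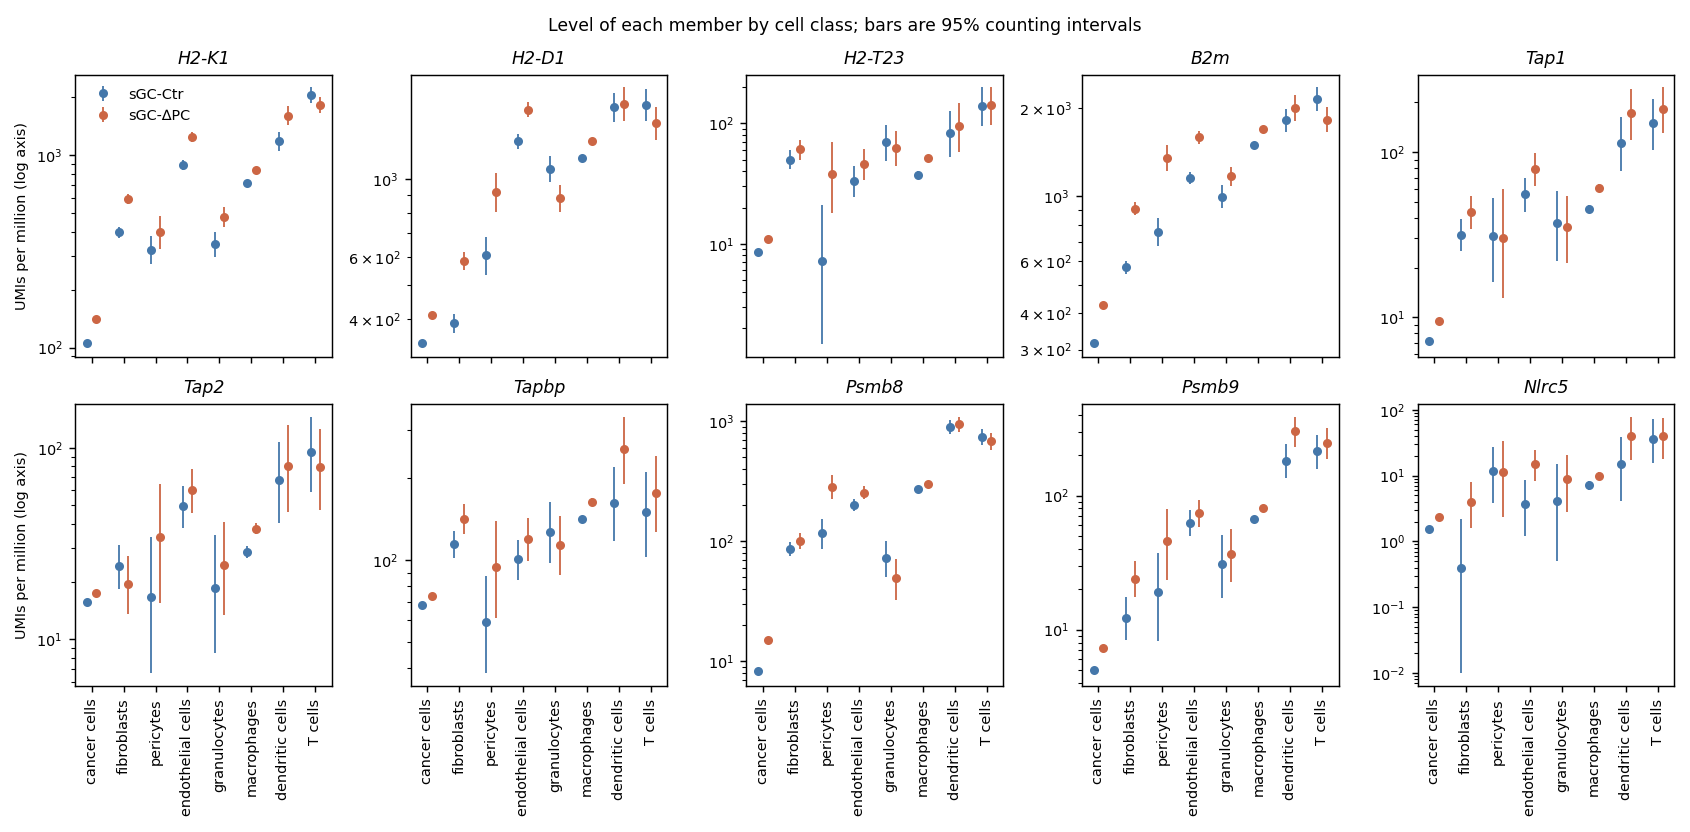
Level of each of the 10 members in the 8 cell classes. One panel a gene, the vertical axis is CPM on a log scale, circles of the 2 colors are the sGC-Ctr and sGC-∆PC libraries, and bars are 95% intervals of counting error. Cancer cells are lowest or among the lowest classes in each panel, from 341 and 410 CPM for H2-D1 down to 1.53 and 2.36 CPM for Nlrc5.

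Among the heavy chains, H2-D1 was the most abundant in cancer cells, with 341 CPM in sGC-Ctr and 410 CPM in sGC-∆PC. It had 388 and 585 CPM in fibroblasts, 606 and 916 CPM in pericytes, and from 880.1 to 1635 CPM in the other classes. H2-D1 in fibroblasts of sGC-Ctr was the closest approach of H2-D1 to the cancer cell level, at 1.14 times, and with mitochondrial and ribosomal protein genes left out of the totals its log2 ratio turned to -0.24. H2-K1, the other classical heavy chain, had 105.5 and 140.7 CPM in cancer cells against 323 to 593 CPM in fibroblasts and pericytes. Granulocytes lay in the same range (345 and 479 CPM). H2-K1 was higher in macrophages (715 and 838 CPM), endothelial cells (893 and 1244 CPM) and dendritic cells (1185 and 1610 CPM), and highest in T cells (2059 and 1831 CPM), 19.5 and 13 times the cancer cell level. H2-T23 encodes Qa-1, a nonclassical heavy chain that binds an inhibitory receptor of natural killer and T cells. Its level in cancer cells was 8.48 and 10.9 CPM, against 140.6 and 141.5 CPM in T cells, 83.3 and 95.6 CPM in dendritic cells and 37.5 and 51.9 CPM in macrophages. In pericytes H2-T23 rested on 3 and 10 UMIs.

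B2m, the light chain that every class I heavy chain needs, had 316 and 426 CPM in cancer cells. Fibroblasts had 572 and 909 CPM, pericytes 756 and 1355 CPM, and the immune and endothelial classes from 998 to 2154 CPM. When each cell was thinned to 2000 UMIs, B2m was found in 46.0% and 59.1% of cancer cells and in 90.9% and 91.1% of macrophages. Without thinning it was found in 98.3% and 96.3% of cancer cells, which had median depths of 50658 and 14418 UMIs, and in 99.4% and 92.7% of macrophages, which had 10789 and 5857. Thinning left out 90 and 316 cancer cells and 10 and 823 macrophages. No class should lack B2m, so none gave a background share.

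Of the loading genes, Tap1 differed more between classes than Tap2 or Tapbp. Tap1 had 7.18 and 9.55 CPM in cancer cells, 45.4 and 60.4 CPM in macrophages, 114 and 171 CPM in dendritic cells and 149.7 and 181 CPM in T cells. Tap2 had 15.7 and 17.5 CPM in cancer cells, 28.7 and 37.9 CPM in macrophages, and 95.3 and 79.6 CPM in T cells. Fibroblasts (24.1 and 19.6 CPM) and granulocytes (18.5 and 24.5 CPM, from 9 and 14 UMIs) stayed near the cancer cells for Tap2. So did pericytes of sGC-Ctr (16.6 CPM, from 7 UMIs), while those of sGC-∆PC had 34.1 CPM from 9 UMIs. Tapbp was the flattest member. It had 68.6 and 73.6 CPM in cancer cells and 141 and 163.5 CPM in macrophages, and over the 7 other classes its ratio to cancer cells ran from 0.867 to 2.38 times in sGC-Ctr and from 1.29 to 3.49 times in sGC-∆PC. Pericytes of sGC-Ctr had 59.4 CPM from 25 UMIs, and with an interval of 0.56 to 1.28 times their order against cancer cells cannot be read.

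The immunoproteasome subunits and Nlrc5 were the scarcest or among the scarcest members in cancer cells. Psmb8 had 8.26 and 15.1 CPM in cancer cells, 86.5 and 101 CPM in fibroblasts, 271 and 302 CPM in macrophages, 744 and 685 CPM in T cells and 901 and 951 CPM in dendritic cells. The dendritic cell level was 109 and 63.0 times that of cancer cells, and the macrophage level 32.9 and 20 times. Psmb9 had 4.95 and 7.32 CPM in cancer cells, 66.5 and 81.1 CPM in macrophages, and 213 and 248 CPM in T cells, 43.0 and 33.8 times the cancer cell level. Nlrc5 was the scarcest member in each class of both libraries except sGC-Ctr pericytes, where H2-T23 was. It had 1.53 and 2.36 CPM in cancer cells, 7.12 and 9.93 CPM in macrophages, and 36.3 and 39.8 CPM in T cells from 8 and 9 UMIs. Fibroblasts of sGC-Ctr held 1 Nlrc5 UMI, and no order against cancer cells can be read from it.

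Counted against cancer cells of their own library, most members were past 2-fold in the immune and endothelial classes. In macrophages 9 members in sGC-Ctr and 10 in sGC-∆PC were at least 2-fold higher, where 22% and 21.2% of all genes with at least 50 UMIs were. The member just short of it was Tap2 in sGC-Ctr, at 1.83 times. In dendritic cells all 10 were higher in both libraries (34.2% and 37.9% of genes), and in T cells all 10 (39.1% and 38.5%). In endothelial cells 9 and 9 were higher (26.5% and 27.6%), and in granulocytes 8 and 8 (29.6% and 27.6%). Pericytes and fibroblasts came closer to the background. In pericytes 6 and 8 members were higher (35.7% and 38.5%), and with the mean of single cells in place of pooled UMIs the sGC-∆PC count was 3. In fibroblasts 5 and 6 were higher (24.1% and 22.8%). The median log2 ratio of the members was 2.24 and 2.16 in macrophages, 3.30 and 3.32 in dendritic cells, 4.17 and 3.70 in T cells, 1.94 and 2.37 in endothelial cells, 1.69 and 1.73 in granulocytes, 1.44 and 1.67 in pericytes, and 1.08 and 1.40 in fibroblasts. For all genes the median lay between -0.18 and 0.58. H2-K1, Tap1, Psmb8 and Psmb9 were past 2-fold in all 7 classes of both libraries, while Tapbp was past it in 3 classes of each.

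**Figure D2:**
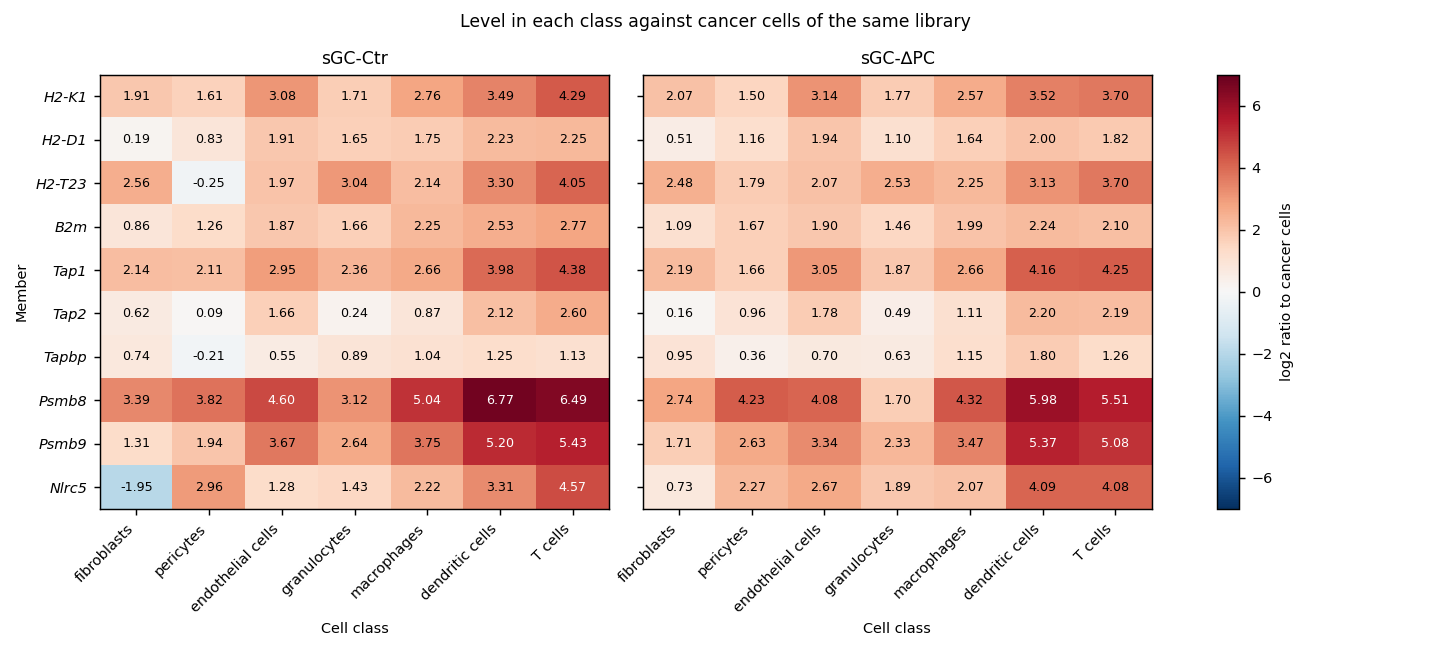
Log2 ratio of each class to the cancer cells of the same library, one heat map a library. Rows are the 10 members, columns the 7 other classes, and the color scale is the log2 ratio. Psmb8 and Psmb9 are the strongest rows and Tapbp the palest, while Nlrc5 in sGC-Ctr fibroblasts, with 1 UMI, is negative.

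Cancer cells also held UMIs of macrophage markers. Lyz2, a macrophage and granulocyte lysozyme, stood in cancer cells at 0.752% (sGC-Ctr) and 1.90% (sGC-∆PC) of its macrophage level, and the C1q genes at 0.756% and 1.89%. The same share of the macrophage level of each member would equal 24.7% and 38.1% of the Psmb8 found in cancer cells, 10.1% and 21.0% of the Psmb9, 4.76% and 12% of the Tap1, 5.10% and 11.3% of the H2-K1, 3.58% and 7.56% of the B2m and 1.38% and 4.11% of the Tap2. In the reverse direction, the cancer cell markers stood in the other classes at 3.97% to 10.5% of their cancer cell level in sGC-Ctr and 4.44% to 12.7% in sGC-∆PC. Lyz2, the C1q genes and the cancer cell markers are themselves markers of the gates, which set aside cells high in the markers of another class. The gates therefore limit these shares, and Lyz2 and C1q are not independent measures of such RNA. The part of such RNA in the levels was not tested. By this measure the share was largest for Psmb8 and smallest for Tap2.

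Ratios between members that act together do not depend on the UMI total of a class. H2-K1 per H2-D1 was 0.309 (0.306 to 0.313) in sGC-Ctr cancer cells and 0.344 (0.340 to 0.347) in sGC-∆PC cancer cells. It was 0.623 and 0.654 in macrophages, 0.698 and 0.790 in endothelial cells, 0.740 and 0.985 in dendritic cells, 1.02 and 1.01 in fibroblasts and 1.26 and 1.27 in T cells. Cancer cells thus had the lowest value in each library. The interval of sGC-Ctr granulocytes (0.322, 0.269 to 0.384) held the cancer cell value of that library. That of sGC-∆PC pericytes (0.434, 0.342 to 0.548) did so in sGC-∆PC, so these orders cannot be read. B2m per heavy chain UMI varied less, from 0.524 in endothelial cells of sGC-Ctr to 1.00 in pericytes of sGC-∆PC, with 0.693 and 0.758 in cancer cells. Tap1 per Tap2 was 0.458 and 0.546 in cancer cells, the only class with fewer Tap1 than Tap2 UMIs in both libraries, against 1.58 and 1.59 in macrophages and 1.12 and 1.32 in endothelial cells.

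The immunoproteasome subunits were also set beside the standard subunits they replace, a pairing chosen with results of these data known. Psmb8 per Psmb5 was 0.0453 and 0.0866 in cancer cells, 0.462 and 0.646 in fibroblasts, 1.33 and 1.68 in macrophages, 4.21 and 4.43 in T cells and 7.21 and 5.40 in dendritic cells. Psmb9 per Psmb6 was 0.0241 and 0.0372 in cancer cells, 0.0690 and 0.133 in fibroblasts, 0.269 and 0.362 in macrophages and 1.21 and 1.51 in T cells. Psmb10, which replaces Psmb7 and is no member, gave a narrower spread: Psmb10 per Psmb7 was 0.496 and 0.495 in cancer cells, 1.05 and 1.22 in macrophages and 2.31 and 1.86 in T cells. Granulocytes gave 0.323 (0.141 to 0.675) and 0.289 (0.143 to 0.545), intervals that held the cancer cell values.

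**Figure D3:**
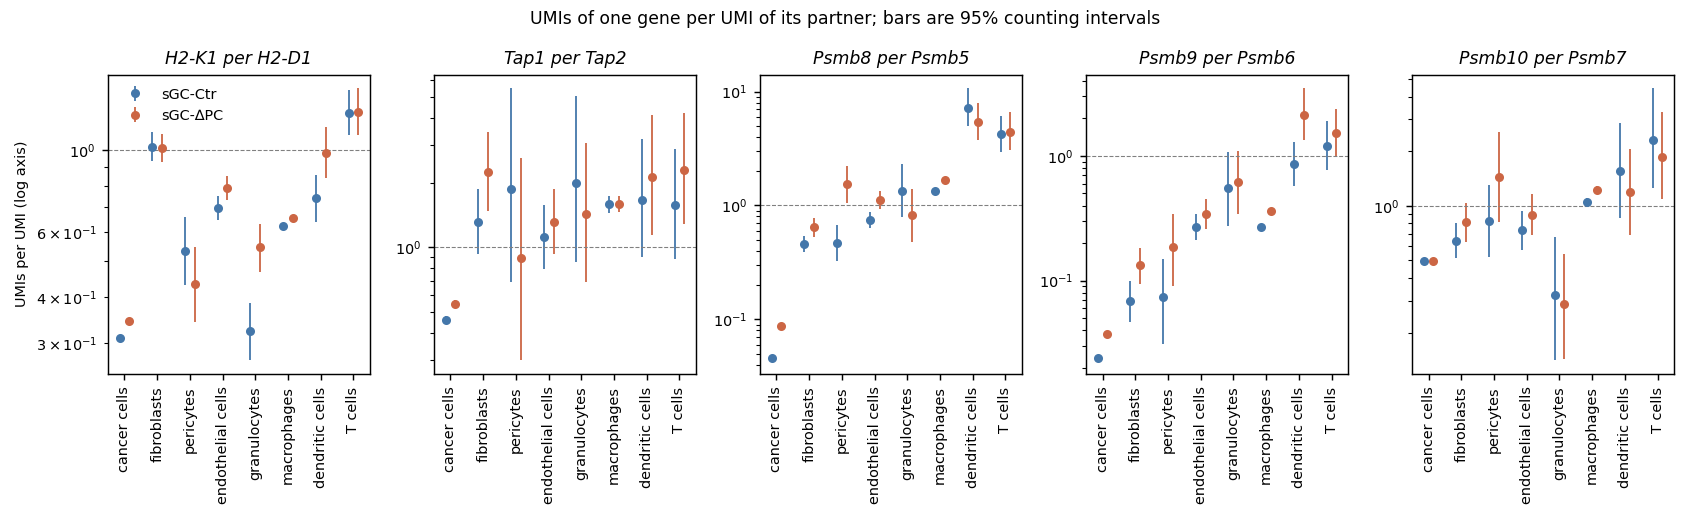
Ratio of UMIs of 2 genes in each class, on a log axis, for H2-K1 per H2-D1, Tap1 per Tap2, and 3 immunoproteasome subunits per standard subunit. Circles of the 2 colors are the libraries and bars 95% intervals of counting error. Psmb8 per Psmb5 runs from 0.0453 in sGC-Ctr cancer cells to 7.21 in sGC-Ctr dendritic cells. Cancer cells have the lowest value in 4 of the 5 panels, though the bars of some classes reach that value.

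Other genes of class I presentation, a list of 22 that holds no member, were higher in macrophages than in cancer cells in 21 cases in both libraries, 11 of them past 2-fold in each, with a median log2 ratio of 1.05 and 0.97. The highest ratios that agreed in direction were those of the nonclassical heavy chains H2-Q7 (5.03 and 3.83), H2-Q6 (4.14 and 3.22) and H2-Q4 (3.95 and 3.29). H2-Q7 had 1.33 and 4.30 CPM in cancer cells and 43.4 and 61.2 CPM in macrophages. The lowest were Sec61a1, a subunit of the translocation channel (-0.05 and -0.03), and the standard proteasome subunits Psmb5 (0.16 and 0.04) and Psmb7 (0.19 and 0.12). Psmb8, which takes the place of Psmb5, had log2 ratios of 5.04 and 4.32 in the same comparison.

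The regulators of the pathway did not share 1 pattern. In macrophages over cancer cells, log2 ratios were 5.76 and 4.89 for Irf8, a myeloid interferon regulatory factor, 1.57 and 1.52 for Stat2, which carries interferon signals, and 1.94 and 1.89 for Irf2. The interferon gamma receptor chains gave 2.12 and 2.18 for Ifngr1 and 2.61 and 2.29 for Ifngr2. Cancer cells still had 31.8 and 33.0 CPM of Ifngr1, against 139 and 149 CPM in macrophages and 404 and 376 CPM in T cells. Of the kinases below the receptor, Jak2 gave 1.5 and 1.57 and Jak1 0.0061 and 0.10. Irf1, which binds interferon response elements, gave 0.28 and 0.87. The RFX subunits, which work with Nlrc5, gave 1.03 and 0.93 for Rfxap, 0.57 and 0.40 for Rfxank and -0.46 and -0.13 for Rfx5. Creb1 gave 0.86 and 0.86 and Nfyb, a subunit of the CCAAT-binding factor, -0.56 and -0.62. Socs1, an inhibitor of the kinases, was higher in cancer cells, with log2 ratios of -1.10 and -0.60. Ifng itself was counted 8 and 10 times in T cells (36.3 and 44.2 CPM), 4 and 18 times in cancer cells and 1 time in macrophages of each library and in fibroblasts of sGC-∆PC.

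Between the libraries, all 10 members were higher in sGC-∆PC than in sGC-Ctr cancer cells. Psmb8 differed the most, from 8.26 to 15.1 CPM, a log2 ratio of 0.87 (0.81 to 0.93). Nlrc5 gave 0.63 (0.48 to 0.78), Psmb9 0.56 (0.48 to 0.65), B2m 0.43 (0.42 to 0.44), H2-K1 0.42 (0.40 to 0.43) and Tap1 0.41 (0.34 to 0.48). H2-T23 gave 0.36 (0.30 to 0.43), H2-D1 0.26 (0.25 to 0.27), Tap2 0.16 (0.11 to 0.21) and Tapbp 0.10 (0.08 to 0.13). The median was 0.41, against 0.0060 for all genes. None reached 2-fold, where 4.10% of genes were at least 2-fold higher and 0.144% lower. With each cell thinned to 2000 UMIs 3 members passed 2-fold, and with the mean of single cells 1 did. No share of all genes is given under these 2 settings, so these counts have no background beside them. The share of Lyz2 in cancer cells was also higher in sGC-∆PC, as given above, and its part in the difference was not tested.

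**Figure D4:**
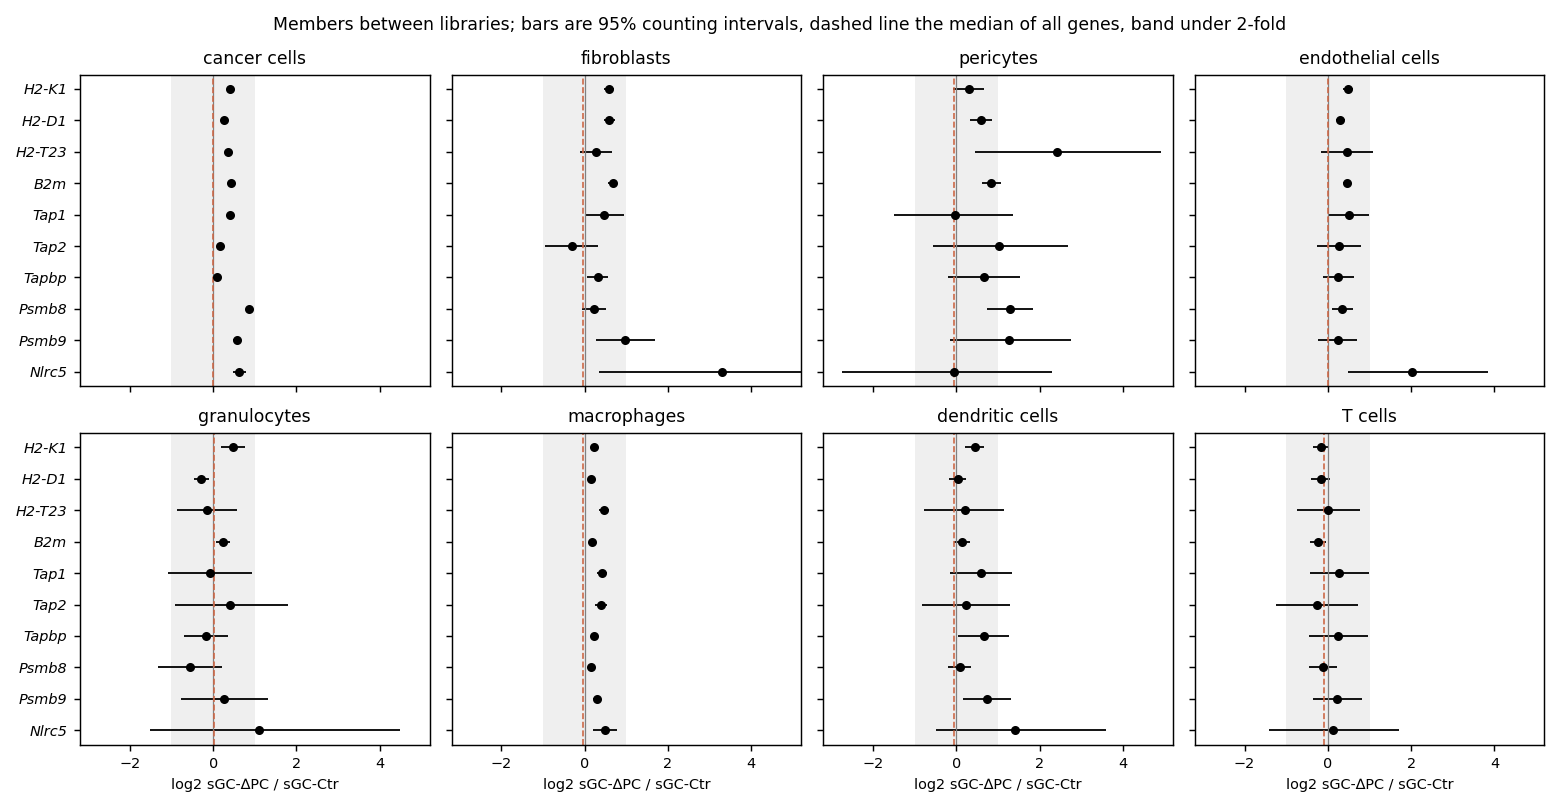
Difference between the libraries for the 10 members, one panel a class, as sGC-∆PC over sGC-Ctr. Points are log2 ratios of CPM, bars 95% intervals of counting error, the dashed line is the median of all genes and the grey band covers differences under 2-fold. In cancer cells and macrophages each point lies above the dashed line and inside the band, and the bars of the small classes cross several log2 units for Nlrc5.

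The difference in cancer cells was smaller for each member among cells of 20000 to 60000 UMIs, though only slightly for Psmb8 and Psmb9. Restricting cancer cells to those with 20000 to 60000 UMIs, a range chosen after the data were seen, left 4463 and 3270 cells, with Lyz2 at 0.600% and 1.84%. The summed level was then 936 and 1140 CPM, and 9 of the 10 members were higher in sGC-∆PC with a median log2 ratio of 0.34. Psmb8 kept a ratio of 0.86 and Psmb9 of 0.55, while Tap2 gave 0.013 and Tapbp -0.0023. Nlrc5 gave 0.46, H2-K1 0.38, B2m 0.35, Tap1 0.32, H2-T23 0.25 and H2-D1 0.24. Within the libraries the summed level differed between depth bands as well. In sGC-∆PC it was 1414 CPM in the 4059 cancer cells with 3000 to 10000 UMIs and 977 CPM in the 828 cells with 80000 or more, and Lyz2 stood at 3.60% and 1.28% in them. In sGC-Ctr it was 1113 CPM in 111 cells and 817 CPM in 1142 cells of the same bands, with Lyz2 at 1.22% and 0.95%. The order was not steady there, with 887 CPM at 10000 to 20000 UMIs and 1036 CPM at 20000 to 40000. In each of the 5 bands sGC-∆PC cells had the higher summed level, though single members did not all follow it. At 3000 to 10000 UMIs Psmb8 (47.5 and 29.3 CPM), Psmb9 (17.3 and 11.9 CPM) and Nlrc5 (7.20 and 3.49 CPM) were lower in sGC-∆PC. H2-T23 (15.8 and 15.1 CPM) and Tap2 (21.6 and 20.2 CPM) were slightly lower there, and the other members were higher. Tapbp was lower at 10000 to 20000 UMIs, and Tap2 and Tapbp at 20000 to 40000.

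Most cancer cells of sGC-∆PC lay in clusters with few cancer cells of sGC-Ctr. When cells of both libraries were clustered together, with no correction for library, clusters 2, 9, 11 and 4 held the most cancer cells of sGC-Ctr. Clusters 0, 3, 7 and 13 held the most of sGC-∆PC. Median depths were 43564 to 75911.5 UMIs in the sGC-Ctr cells of the former. They were 8765 to 18128 UMIs in the sGC-∆PC cells of the latter, and the part of depth in this split was not tested. At least 100 cancer cells of both libraries were present in 10 clusters, which held 86.0% of the cancer cells of sGC-Ctr and 32.1% of those of sGC-∆PC. In 10 of these 10 the summed level was higher in sGC-∆PC, by a log2 ratio of 0.11 to 0.43 with a median of 0.22. H2-K1 and B2m were higher in 10 clusters, H2-D1, H2-T23, Tap1 and Nlrc5 in 9, Tapbp, Psmb8 and Psmb9 in 8, and Tap2 in 7. In 7 of the 10 clusters Lyz2 was below 1% of its macrophage level in both libraries. Cluster 14 had the lowest summed levels in sGC-Ctr, with 759 CPM against 896 CPM in sGC-∆PC. Cluster 24 had the highest among the shared clusters, 1214 and 1356 CPM, and also the most Lyz2, 7.00% and 5.93%.

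**Figure D5:**
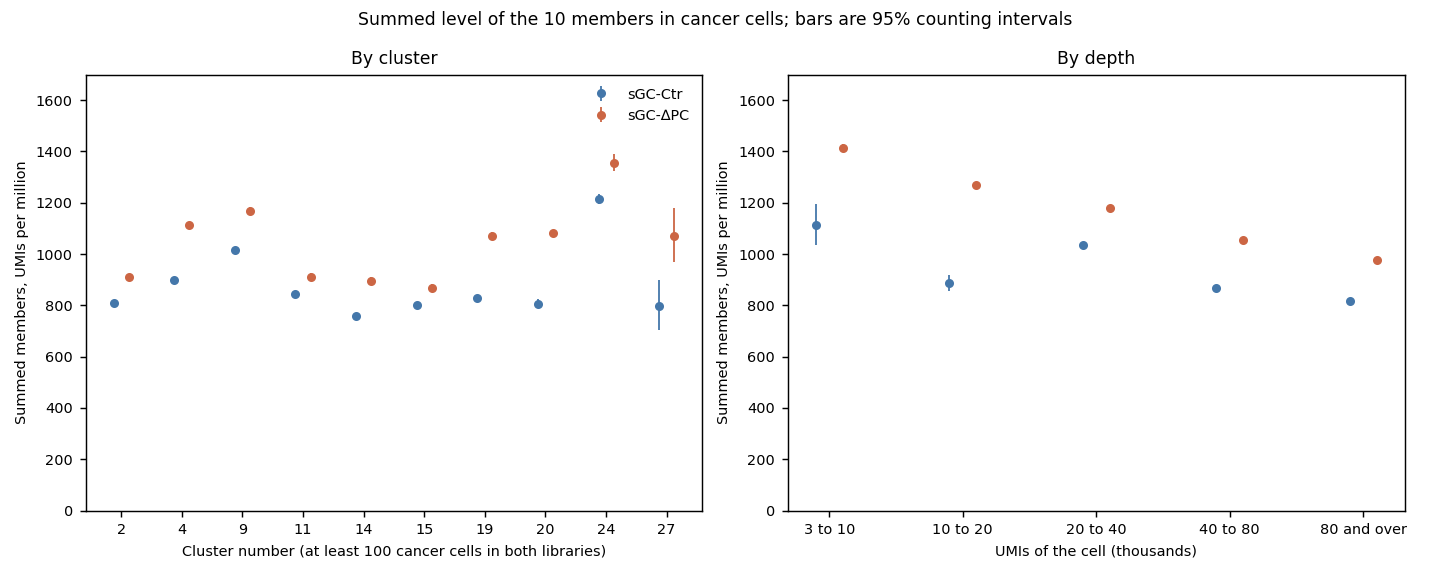
Summed level of the 10 members in cancer cells, by shared cluster on one side and by depth of the cell on the other. The vertical axes are CPM from 0, circles of the 2 colors are the libraries, and bars are 95% intervals of counting error. The sGC-∆PC circle is the higher one in each of the 10 clusters and in each of the 5 depth bands.

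Stromal and immune classes differed less evenly between the libraries. In macrophages all 10 members were higher in sGC-∆PC, by log2 ratios of 0.16 to 0.48 with a median of 0.26 (-0.04 for all genes), and none reached 2-fold, where 0.775% of genes did. With Leiden clusters as classes, 5 of these 10 (H2-K1, H2-D1, B2m, Psmb8 and Psmb9) were lower in sGC-∆PC instead, by log2 ratios of -0.015 to -0.14. Macrophages came mostly from clusters 10, 8, 12 and 5 in sGC-Ctr and 1, 8, 12 and 16 in sGC-∆PC. In endothelial cells all 10 were higher with a median of 0.40, against 0.01 for all genes. H2-K1 there had 893 and 1244 CPM and B2m 1156 and 1591 CPM. The 1 endothelial member past 2-fold, against 0.902% of genes, was Nlrc5 with 5 and 15 UMIs. Endothelial cells of 3000 to 20000 UMIs numbered 15 and 17, with median depths still apart at 13383 and 8893 UMIs. Among them none passed 2-fold and 7 of 10 were higher, with H2-T23 (-0.61), Tap1 (-0.51) and Psmb9 (-0.54) lower. In dendritic cells all 10 were higher with a median of 0.34 (-0.06 for all genes), and Nlrc5 with 4 and 8 UMIs was past 2-fold, against 1.71% of genes. With the mean of single cells 3 of the 10 turned lower, and Lyz2 there stood at 1.28% and 2.59% of its macrophage level, the part of which was not tested. In fibroblasts 9 were higher with a median of 0.52 (-0.04 for all genes), at median depths of 22134 and 2858.5 UMIs and with Lyz2 at 0.759% and 1.35%. Among fibroblasts of 3000 to 20000 UMIs 6 were higher and 4 lower, with a median of 0.13 and Psmb8 at -1.34. These were 43 and 45 cells, with median depths still apart at 17156 and 6183 UMIs. Nlrc5, with 1 and 7 UMIs, was the fibroblast member past 2-fold, against 0.705% of genes, and Tap2 was the one that was lower, at -0.30. The shares of genes for endothelial cells, dendritic cells and fibroblasts are over those with at least 50 UMIs, and Nlrc5 was not among them.

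Pericytes, the class meant to lose Gucy1b1, rested on 34 and 30 cells. B2m went from 756 to 1355 CPM, a log2 ratio of 0.84 (0.62 to 1.06), and H2-D1 from 606 to 916 CPM, 0.60 (0.34 to 0.86). Psmb8 went from 116.5 CPM (49 UMIs) to 284 CPM (75 UMIs), a ratio of 1.29 (0.75 to 1.84). It was 1 of 4 members past 2-fold, against 1.19% of genes with at least 50 UMIs, and the only one of the 4 among those genes. The others were H2-T23 (2.41, from 3 and 10 UMIs), Tap2 (1.03, interval -0.56 to 2.69) and Psmb9 (1.26, interval -0.16 to 2.75). With the mean of single cells in place of pooled UMIs none of the 10 was past 2-fold and Psmb8 stood at 0.78, and with a stricter gate Tap2 turned to -0.18. Lyz2 in these pericytes was at 0.755% (sGC-Ctr) and 2.92% (sGC-∆PC) of its macrophage level, and its part was not tested. Median depths were 11018.5 and 7638.5 UMIs. Among pericytes of 3000 to 20000 UMIs, 30 and 15 cells, B2m stood at 0.39, H2-D1 at 0.20, Psmb8 at 0.89 and H2-K1 at -0.08. Of the 10 members 9 were higher and 1 lower there, with a median of 0.37 against 0.76 in all pericytes. The part of depth was not tested.

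Granulocytes and T cells did not share the direction. In each, 5 of 10 members were higher in sGC-∆PC, with medians of 0.08 and -0.05. Granulocyte H2-D1 went from 1070.2 to 880.1 CPM, a log2 ratio of -0.28 (-0.46 to -0.10), while H2-K1 went from 345 to 479 CPM, 0.47 (0.19 to 0.76). In T cells B2m went from 2154 to 1831 CPM, -0.23 (-0.43 to -0.04), and H2-K1 from 2059 to 1831 CPM, -0.17 (-0.37 to 0.03). In T cells 0 members were past 2-fold, against 0.967% of genes. In granulocytes only Nlrc5 was, with 2 and 5 UMIs, against 1.60% of genes with at least 50 UMIs, a set without Nlrc5. Across the 8 classes, Psmb9 was higher in sGC-∆PC in 8, H2-K1, H2-T23, B2m, Tapbp and Nlrc5 in 7, and H2-D1, Tap1, Tap2 and Psmb8 in 6. The interval lay above 0 in 6 classes for H2-K1 and B2m and in 5 for H2-D1. It did so in 4 for Tapbp, Psmb8, Psmb9 and Nlrc5, in 3 for H2-T23 and Tap1, and in 2 for Tap2. It lay below 0 in 1 class each for H2-D1 and B2m. Under an alternative Psmb9 turned lower in macrophages, dendritic cells, granulocytes, T cells, endothelial cells and fibroblasts.

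Genes outside the members differed between the libraries by group. Of the 22 other class I genes, 15 were higher and 7 lower in sGC-∆PC cancer cells, with a median log2 ratio of 0.03. H2-Q7 (1.69) and H2-Q6 (1.62) were past 2-fold there, while Psmb5 (-0.06), Psmb6 (-0.06), Psmb7 (0.02), Psmb10 (0.01), Psme1 (-0.07) and Psme2 (-0.07) stayed close to 0. Of 12 interferon gamma response genes, a list with no member in it, all 12 were higher in sGC-∆PC cancer cells with a median of 0.75, and Gbp4 (1.35), Cxcl9 (1.16) and Gbp5 (1.03) were past 2-fold. Cxcl9, a chemokine that draws T cells, had 3.02 and 6.74 CPM in cancer cells, 145 and 736 CPM in endothelial cells and 107 and 313 CPM in fibroblasts. In macrophages 11 of the 12 were higher with a median of 0.44, and in endothelial cells each of the 10 with enough UMIs was, with a median of 0.93. The 15 regulators with enough UMIs split into 9 higher and 6 lower in cancer cells, with a median of 0.05.

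Within a library, cells that had more interferon response UMIs also had more of the members. Cells with at least 5000 UMIs were ranked by their share of UMIs in the 12 interferon response genes and the upper tercile was set against the lower one. In cancer cells all 10 members were higher in the upper tercile of both libraries, with median log2 ratios of 0.57 and 0.48 against 0.14 and 0.13 for all genes. Of all genes, 78.5% and 79.7% were higher there. Psmb8 went from 4.65 to 13.9 CPM in sGC-Ctr and from 13.1 to 25.4 CPM in sGC-∆PC, and Psmb9 from 2.85 to 8.43 and from 6.05 to 12.6 CPM. In sGC-Ctr 3 members were past 2-fold, against 2.51% of genes, and in sGC-∆PC 2, against 1.01%, and after thinning to 2000 UMIs none was in either. Tap1 (-0.10) and Tap2 (-0.52) were then lower in the upper tercile of sGC-Ctr. The terciles are cuts of a score and no cell types. In the lower one, 1289 of 2427 cells of sGC-Ctr and 3737 of 3754 of sGC-∆PC held none of the list's UMIs, and in sGC-∆PC the middle tercile, with a median of 46978.5 UMIs per cell against 10114 and 13150.5 on either side, had the lowest summed level, 964 CPM. Lyz2 went from 0.652% to 0.896% and from 2.25% to 2.46% between the lower and upper terciles, and its part was not tested.

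Macrophages gave a wider spread by the same score. All 10 members were higher in the upper tercile of both libraries, with medians of 0.77 and 1.08. After thinning to 2000 UMIs, Tap2 in sGC-Ctr turned to -0.03. Tap1 went from 26.5 to 80 CPM in sGC-Ctr and from 25.2 to 117.5 CPM in sGC-∆PC, log2 ratios of 1.59 and 2.22. Nlrc5 gave 1.77 and 1.88 and Psmb9 1.52 and 1.70. The counts past 2-fold were 3 and 5 members, against 2.47% and 2.69% of genes, and the sGC-∆PC count was 1 after thinning. Ranked by MHC class II genes, macrophages again had all 10 members higher in the upper tercile, with medians of 0.69 and 0.70. In sGC-∆PC 3 were past 2-fold (2.07% of genes), H2-T23, Tap1 and Psmb9, and in sGC-Ctr 0 were (1.99%).

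Hypoxia and cell division gave no such order. By hypoxia genes, all 10 members were lower in the upper tercile of sGC-Ctr cancer cells, with a median of -0.34 against -0.17 for all genes, whereas in sGC-∆PC 4 were higher and 6 lower with a median of -0.01 against -0.14. Of all genes, 25.5% and 27.9% were higher in the upper hypoxia tercile. No member was past 2-fold, where 1.38% and 0.829% of genes were lower and 1.47% and 1.37% higher. After thinning, Psmb9 and Nlrc5 were past 2-fold lower in sGC-Ctr, with no share of all genes given for thinned cells. H2-T23 (0.03) and Tap1 (0.11) were then higher there. By G2/M genes, 3 members (sGC-Ctr) and 5 members (sGC-∆PC) were higher, where 54.8% and 50.4% of all genes were. None was past 2-fold, where 5.34% and 4.02% of genes were higher and 1.26% and 0.820% lower. Tap2 was lower in the upper G2/M tercile of both libraries (-0.53 and -0.29) and Psmb9 higher (0.33 and 0.43).

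Few cells of the immune classes lacked the members at an equal depth. Thinned to 2000 UMIs, a cancer cell held a mean of 1.86 (sGC-Ctr) and 2.53 (sGC-∆PC) UMIs of the 10 members, and 22.9% and 13.4% of cancer cells held none, where sampling alone would leave 15.6% and 7.98% if each cell held the mean. Macrophages held 7.93 and 8.72 with 0.457% and 0.244% of cells at none. Fibroblasts held 3.47 and 4.5 with 13.1% and 9.57% at none, and pericytes 4.26 and 6.35 with 5.88% and 5.00%. Sampling alone would leave 0.0358% and 0.0163% of macrophages, 3.12% and 1.11% of fibroblasts and 1.41% and 0.175% of pericytes. The share at none was above this in each of these classes, so the excess was not particular to cancer cells. At least 10 UMIs were held by 0.461% and 0.694% of cancer cells and by 28.4% and 36.6% of macrophages.

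The genes whose levels over the 16 combinations of class and library were most like the mean of the members were Mif4gd (Pearson r = 0.930), Sp110 (0.929), Prex1 (0.902), Parp4 (0.896), Akap13 (0.889), Phf11b (0.883), Crem (0.883), Il2rg (0.879), Zup1 (0.877) and Tmsb4x (0.875), out of 13825 genes compared. The members themselves correlated with the mean of the other 9 at 0.790 (H2-T23) to 0.988 (Psmb9). The 16 points share libraries and differ in depth, so these values only describe likeness. In GENCODE transcripts, 16.1% of the 90-base windows at the 3′ end of H2-T23 also occurred in other genes and 0.177% of those of H2-K1 did, and none of the other members' windows did.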

How the data were processed

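Per the file headers and the submitters' processing notes, the authors ran Cell Ranger (version 6.1.1, mouse genome mm10) and deposited raw UMI counts per gene and barcode for 2 libraries, each of 3 pooled tumors. Cells were kept with under 10% mitochondrial UMIs and within 3 median absolute deviations for UMIs and genes. A cell joined a class when it had at least 3 UMIs and enough of its UMIs in that class's markers, and no other class's markers passed 50% of their own limit. No doublet caller was run, and cells that passed for several classes were set aside. Classes under 20 cells were not described.

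UMIs were summed per class and divided by the class total (CPM), with exact Poisson intervals. Ratios have exact conditional binomial intervals (95%). Genes with at least 50 UMIs on both sides together form the background, with a pseudocount of 0.5. Likeness used log2(CPM + 1), and genes with 200 UMIs in all. Terciles used cells with at least 5000 UMIs. Leiden clusters (resolution 2.0) used 3000 variable genes without the members, 20 components and 15 neighbors, with no correction for library.

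The members and gene lists were chosen with earlier results of these data known. Named genes were all members, the 3 highest and 3 lowest ratios of macrophages to cancer cells in the list of other class I genes, the regulators, of which 1 is not reported here, and the 10 most alike genes; others named were chosen after their values were seen, as were the restriction by depth and the longer interferon element. Promoters came from RefSeq (GRCm38.p6), with 8 of 10 members matched. Simulated data were used to test the gates and ratios. Computation used Python 3.11.15, numpy 2.4.6, scipy 1.17.1, pandas 2.3.3, scanpy 1.11.5, scikit-learn 1.9.0, leidenalg 0.10.2, igraph 0.11.9 and matplotlib 3.10.9. Alternatives were another quality filter, stricter and looser gates, Leiden clusters as classes, thinning to 2000 UMIs, the mean of single cells, and totals without mitochondrial and ribosomal protein genes.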

Additional observations from a re-analysis of the deposited data

Results flagged for a closer look

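H2-D1 in granulocytes was lower in sGC-∆PC than in sGC-Ctr, with a log2 ratio of -0.28, while in cancer cells, macrophages, dendritic cells, endothelial cells, pericytes and fibroblasts it was higher. In T cells H2-D1 was also lower, at -0.18. It stood out because its direction opposed that of the other classes. B2m in T cells stood out for the same reason, with a log2 ratio of -0.23 against 0.43 in cancer cells and 0.23 in granulocytes. With 1 library a condition, neither difference between classes was tested.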

How the results depend on the processing

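Of the counts of members past 2-fold and the Gucy1b1 ratio in pericytes, 152 values recomputed under the alternatives stayed within 1.5 times of the reported count, or within the interval of the ratio, and 16 counts moved further. Against cancer cells, the mean of single cells left 3 members past 2-fold in sGC-∆PC pericytes. Between libraries, thinning gave 3 in cancer cells and 2 in endothelial cells, and the mean of single cells 1 in cancer cells, 0 in dendritic cells and 0 in pericytes. Leiden clusters gave 0 in dendritic cells and 2 in fibroblasts, and the stricter gate 2 in granulocytes and 2 in fibroblasts. The restriction by depth gave 2 in granulocytes, from 21 and 56 cells, and 0 in endothelial cells, from 15 and 17 cells. Between terciles, thinning gave 0 for the interferon score in cancer cells of sGC-Ctr and 0 in those of sGC-∆PC, 2 for hypoxia in sGC-Ctr, and 1 for the interferon score in sGC-∆PC macrophages. The causes were not tested, and no share of all genes is given beside these recomputed counts. Single values moved by less than their counting interval in 1283 cases and by more in 455, and 1 value past 2-fold turned its direction: Tap2 between libraries in pericytes, at -0.18 with the stricter gate. Counting smaller values as well, the sign changed in 53 of 616 values between libraries, in 16 of 935 against cancer cells and in 12 of 100 between terciles. Between libraries, 13 of 79 changed sign at matched depth, 3 each in endothelial cells, pericytes, fibroblasts and granulocytes and 1 in cancer cells, and 5 of the 10 macrophage values did with Leiden clusters. Endothelial cells and pericytes formed no cluster of their own, so Leiden clusters gave no value for them. No paired analysis was possible because each condition is 1 library, and no library could be left out for the same reason. Depth limits Nlrc5, which had 15 UMIs or fewer in each library in every class but cancer cells and macrophages, and H2-T23, Tap2 and Psmb9 in pericytes.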
